A study of Mus musculus with 2 samples.

Results

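Messenger RNAs that encode the DNA replication machinery and the enzymes of deoxynucleotide supply were compared between activated mouse B cells transduced with a retrovirus encoding miR-181b, a microRNA, and cells transduced with the control virus. The set holds 44 gene names, taken by name from the annotation of a whole-genome oligonucleotide array and ordered by function from origin licensing to nucleotide supply. Of these, 42 had a probe and all 42 were measured, out of 27962 gene names on the array and 17711 that were measured. Gins2, a subunit of the GINS complex of the replicative helicase, and Rfc1, the large subunit of the clamp loader, had no probe under these names.

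The cells were primary B lymphocytes from spleens of C57BL/6 mice, enriched by removing CD43-bearing cells. Both cultures received interleukin-4 (10 ng/ml) and lipopolysaccharide (25 µg/ml), which drive resting B cells into the cell cycle. Viral supernatant was left on the cells for 20 h with polybrene (8 µg/ml), a polymer that aids infection. Each vector also expressed a green fluorescent marker (GFP), and positive cells were collected by sorting on day 2, so both groups consist of infected, stimulated cells and differ in the miR-181b insert. The labels give 1 biological replicate per vector, and RNA integrity numbers of 9.7 to 9.8. The RNAs (2 µg each) were co-hybridised on 2 arrays. On array 1 the miR-181b RNA was in Cy5 and the control RNA in Cy3, and on array 2 the dyes were exchanged. The arrays are technical repeats, so the values below describe these RNA samples and no difference was tested.

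Before a cell divides, origins of replication are licensed by the origin recognition complex, Cdc6 and Cdt1, which load the ring of Mcm2 to Mcm7 onto DNA. In S phase kinases and further factors turn this ring into an active helicase, primase and DNA polymerases copy the strands, and a sliding clamp keeps the polymerases on DNA. Many of these genes are transcribed under the control of E2F factors when cells leave quiescence, and ribonucleotide reductase and thymidylate synthase supply the deoxynucleotides. Stimulated B lymphocytes divide fast and express these genes at high levels.

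The sequence that distinguishes the groups is that of the microRNA, shown in RefSeq's mature form with the seed (bases 2 to 8) in capitals.
miR-181b: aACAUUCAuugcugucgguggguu
The probes are DNA oligonucleotides of 60 bases, and the array does not report mature microRNA, so the level of miR-181b could not be checked against the labels. The 7-base match of the seed, TGAATGT, was in 0 of the 60 probes of the replication genes and in 0.954% of the 41174 probes on the array. The shorter match to bases 2 to 7 was in 1 of the 60, a Pola2 probe that was not well above background, and in 2.56% of all probes. A probe covers a short stretch of a transcript, so these counts say nothing of the rest of the transcript.

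The promoters show a feature that did not enter the choice of genes. RefSeq promoters (GRCm38.p6, 250 bases before to 50 after a transcript start) were listed for 37 of the 44 genes, 44 promoters in all. Pole, Mcm4, Gins1, Gmnn, Rfc2, Gins2 and Prim2 were without an entry. The E2F-type motifs TTTGGCGC, TTTCCCGC, TTTCGCGC, TTTGCCGC, TTTGGCGG and TTTCCCGG were searched on both strands, and some of them overlap where they occur together. At least 1 was found in 16 of the 44 promoters (36.4%), against 3.98% of 32851 promoters in the table. The promoters of the replication genes were also rich in CG dinucleotides, with a median of 23.5 against 7, and among the 6563 promoters with at least 23.5 the share with an E2F-type motif was 8.62%. The CCAAT box, a shorter motif found in many promoters, was in 25 of the 44 (56.8%) against 37.4% of all. Both kinds stood together in 10 promoters (22.7%) against 1.55% of all. A match is a run of letters and does not show that a factor binds.

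The windows below lie directly upstream of the transcript start. Mcm6 is shown because it holds the most E2F-type matches, and the other genes because their RNA passed 1.2-fold between the vectors. This choice was made after the values were seen. Capitals mark E2F-type matches and CCAAT boxes on either strand, where ATTGG is CCAAT on the opposite strand. The windows are Mcm6 chr1:128359706-128359825 (minus strand), Mcm2 chr6:88898781-88898960 (minus), Rpa2 chr4:132768260-132768359 (plus), Rpa3 chr6:8259142-8259241 (minus) and Fen1 chr19:10203922-10204041 (minus, the first of its listed starts by coordinate).
Mcm6: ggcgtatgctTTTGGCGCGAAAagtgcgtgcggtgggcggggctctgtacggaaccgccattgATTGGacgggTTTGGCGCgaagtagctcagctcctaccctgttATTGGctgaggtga
Mcm2: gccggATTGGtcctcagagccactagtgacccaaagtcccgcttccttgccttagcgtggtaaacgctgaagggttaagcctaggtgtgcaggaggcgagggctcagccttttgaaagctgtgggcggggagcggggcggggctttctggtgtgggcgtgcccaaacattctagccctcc
Rpa2: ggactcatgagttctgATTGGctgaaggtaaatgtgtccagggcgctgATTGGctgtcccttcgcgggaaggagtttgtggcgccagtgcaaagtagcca
Rpa3: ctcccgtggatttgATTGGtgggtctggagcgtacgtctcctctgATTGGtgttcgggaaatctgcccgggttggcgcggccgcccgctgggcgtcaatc
Fen1: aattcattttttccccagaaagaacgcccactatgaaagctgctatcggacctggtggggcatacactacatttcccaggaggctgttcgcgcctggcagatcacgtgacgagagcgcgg
The Mcm6 window carried both kinds of motif. Those of Mcm2, Rpa2 and Rpa3 carried CCAAT boxes and no E2F-type match, and that of Fen1 carried neither.

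**Figure D1:**
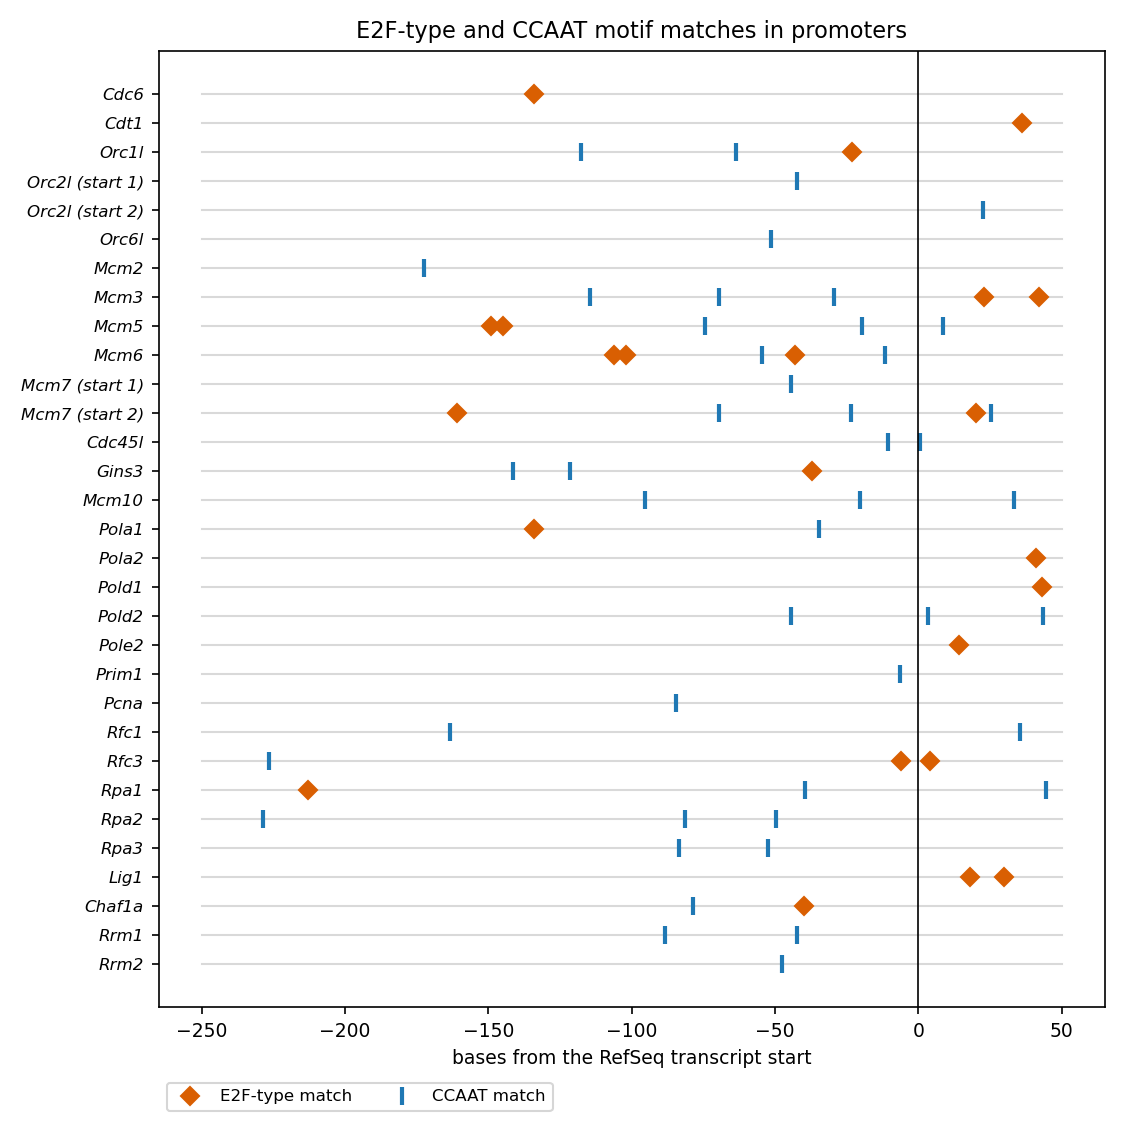
Positions of E2F-type matches (diamonds) and CCAAT matches (bars) in the 31 promoters of replication genes that hold at least 1, against the distance in bases from the RefSeq transcript start. Each grey line is 1 promoter, 250 bases before to 50 after the start; the E2F-type matches lie on both sides of the start, with a median position of -27.

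Between 64.7% and 67.7% of the 43379 spots that were not controls were well above background in a channel. Of the B cell markers, 11 of 11 were measured in both RNAs. Detection did not set B cells apart, since T cell markers were also measured (10 of 10), as were 5 of 8 macrophage, 5 of 10 granulocyte, 4 of 9 natural killer, 3 of 6 dendritic, 2 of 7 erythroid and megakaryocyte and 7 of 7 plasma cell markers with a probe. The median log2 ratio was 0.19 for the B cell markers (-0.21 on array 1 and 0.67 on array 2), 0.013 for the T cell markers and 0.36 for the plasma cell markers. The bearing of such cells on the ratios of the replication genes was not tested. In RNA of a whole population, fewer cells in S phase and less RNA per cell cannot be told apart.

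All log2 values below are normalised signals or ratios of miR-181b over control. A ratio is the mean of both arrays, and ± gives how far each array lies from it, a technical spread. The replication genes were bright: 28 of 42 lay in the brightest 30% of measured genes, 10 in the brightest 10%, and 1 below the median signal. As a group their ratios centred on 0. The median log2 ratio was -0.0041 (-0.0085 on array 1 and -0.047 on array 2), beside -0.0052 for all measured genes (0.0053 and -0.025). On both arrays 10 genes were higher in the miR-181b RNA (23.8%, against 24.4% of all measured genes) and 12 were lower (28.6%, against 27.4%). The other 20 had opposite signs on the arrays, against 48.2% of all genes. Of these, 10 were higher on array 1 and lower on array 2 (27% of all genes) and 10 the reverse (21.1% of all genes). Fen1, Mcm2 and Rpa2 were at least 1.2-fold higher with the same sign on both arrays, where 6.04% of all genes were. Rpa3 was at least 1.2-fold lower, where 5.42% of all genes were. At 1.5-fold the counts were 0 higher and 0 lower, against 0.813% and 0.508% of all genes. The shares by sign lay near those of the whole array, and the counts past 1.2-fold rest on few genes.

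**Figure D2:**
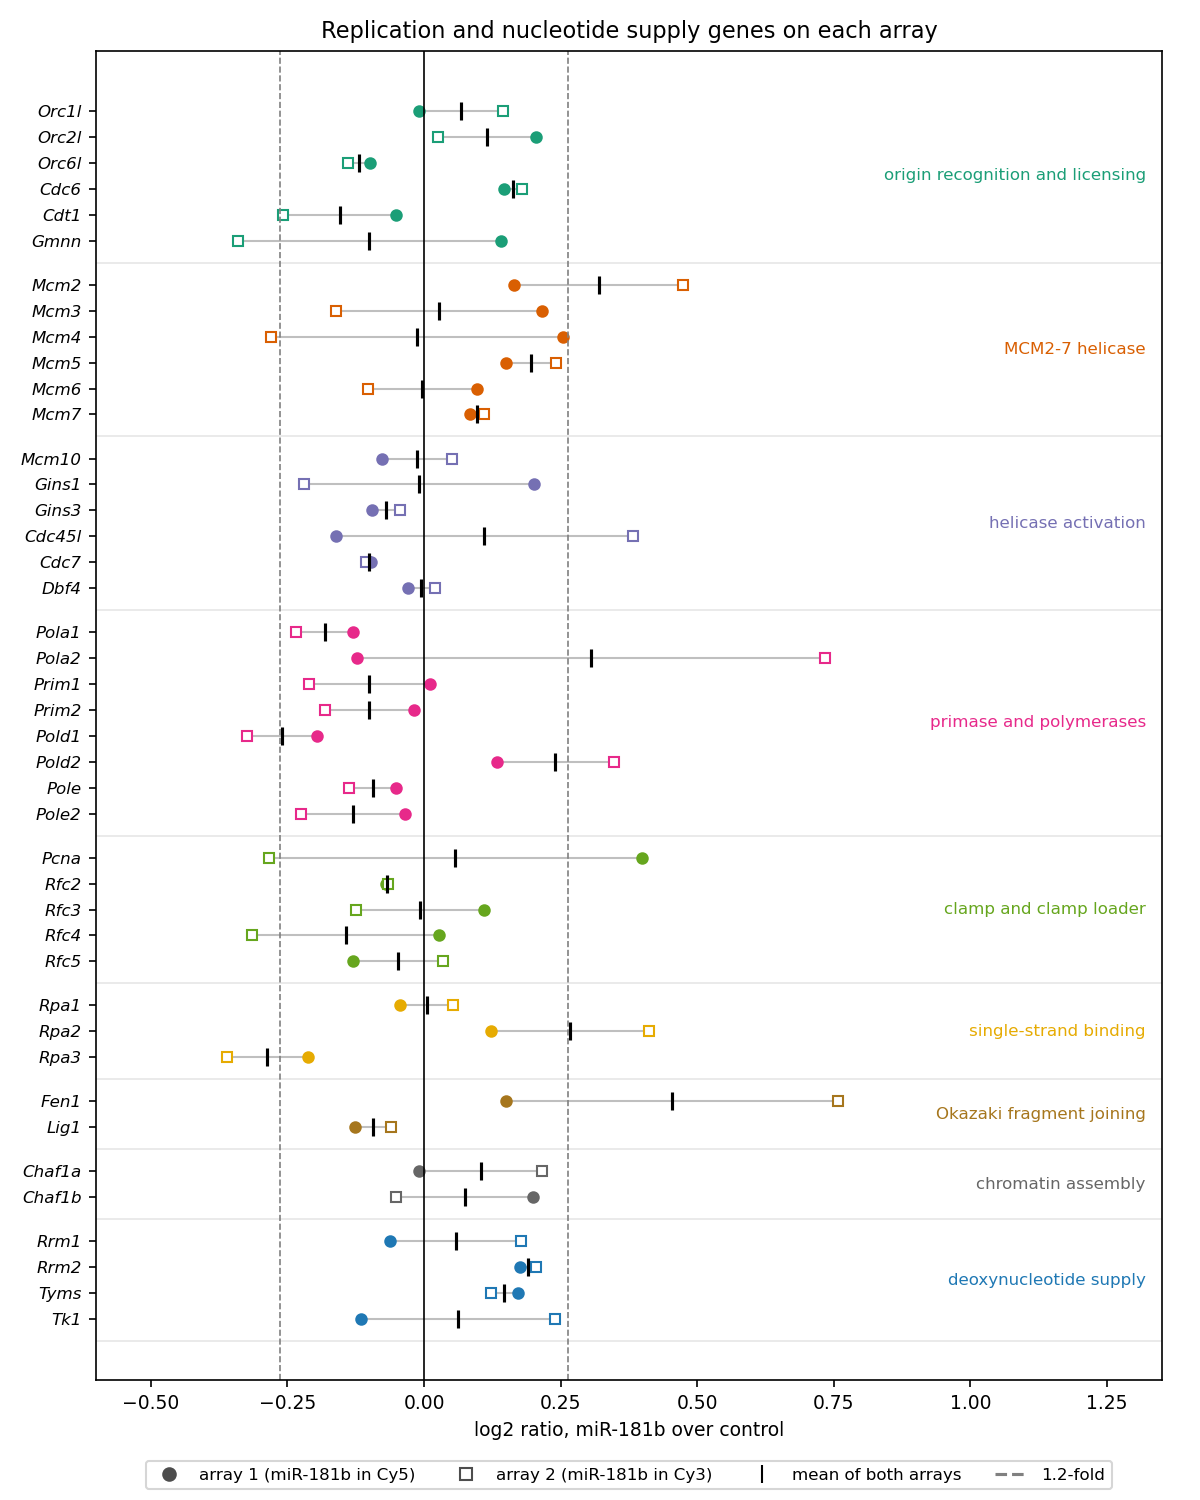
Log2 ratio of miR-181b over control for each of the 42 measured genes, ordered by role. Filled circles are array 1, open squares array 2, black bars the mean of both, and dashed lines 1.2-fold; most means lie within the dashed lines and 20 genes have an array on either side of 0.

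These ratios rest on the loess step, which removes the trend of the ratio with signal on each array. What causes that trend was not tested. Without loess the median of all measured genes was -0.20 and that of the replication genes -0.36, with 10 of the 42 above the median of all genes and 32 below. Of the 10 genes higher on both arrays, 0 stayed higher on both in that setting, and 27 genes were lower on both. The shares of all genes by sign were not counted there. The shift grew with signal, and the brightest 30% of all genes had a median of -0.38 without loess. When all genes were divided by signal into 10 bands of equal size and each replication gene was set against its own band, 20 replication genes lay above the median and 22 below, by a median of -0.0036. This comparison by signal was added after the data were seen. The distances from the median of all genes given below take no account of signal. Bright genes lay lower without loess, with a median of -0.40 in the brightest 10%.

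Among the 6 genes of origin recognition and licensing, 2 were higher on both arrays (33.3%, against 24.4% of all genes). Another 2 were lower on both (33.3%, against 27.4%). The median ratio was -0.016 (0.066 on array 1 and -0.057 on array 2), and without loess it was -0.37, or -0.16 from the median of all genes. Cdc6, the ATPase that helps load the helicase, had log2 signals of 10.64 (miR-181b) and 10.49 (control) on array 1 and of 10.53 and 10.35 on array 2. It was the brighter in the miR-181b RNA on both arrays (0.16 ± 0.016), though a second, dimmer probe gave -0.055. Without loess the Cdc6 ratio was -0.15, where the median of all genes was -0.20. Cdt1, its loading partner, had 12.48 and 12.53 on array 1 and 12.32 and 12.58 on array 2. It lay lower in the miR-181b RNA on both arrays (-0.15 ± 0.10). Orc6l, the array's name for the origin recognition subunit Orc6, had 13.17 and 13.27, then 13.15 and 13.29. Its difference was small and alike on both arrays, which carry the same RNAs (-0.12 ± 0.020). Orc2l, now Orc2, was higher on both arrays (0.21 and 0.025), while Orc1l, now Orc1, had -0.0086 and 0.14. Geminin (Gmnn), the protein that binds and inhibits Cdt1, differed most between the arrays: its signals were 14.17 and 14.03 on array 1 and 13.94 and 14.28 on array 2. The readings of the RNAs overlapped, and the ratio of -0.10 ± 0.24 was smaller than its spread.

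Of the 6 subunits of the helicase ring, 3 were higher on both arrays (50%, against 24.4% of all genes). Lower on both were 0 (27.4% of all genes were), and 3 had opposite signs (50%, against 48.2%). Their ratios had a median of 0.062, with 0.16 from array 1 alone and 0.0029 from array 2 alone. Without loess this median fell to -0.34, or -0.14 from the median of all genes. Mcm2 had signals of 11.43 (miR-181b) and 11.26 (control) on array 1 and of 11.34 and 10.87 on array 2. Both miR-181b readings were above both control readings, and the ratio was 0.32 ± 0.15, 1.25-fold, which turned to -0.016 without loess, still 0.19 above the median of all genes in that setting. Mcm5 had 13.59 and 13.44, then 13.53 and 13.29 (0.20 ± 0.046), but without loess the ratio was -0.20, which is 0.0051 above the median of all genes. Mcm7 had 14.46 and 14.38, then 14.43 and 14.32. Its difference was small but alike on both arrays (0.097 ± 0.012), and without loess it lay at -0.32, or -0.11 from the median of all genes. The brightest 10% of all genes, to which Mcm7 belongs by signal, had a median of -0.40 in that setting. Mcm4 showed the widest gap between the arrays, with 14.84 and 14.58 on array 1 and 14.46 and 14.75 on array 2. The array with the miR-181b RNA in Cy5 gave 0.25 and the other gave -0.28, so the mean was near 0 (-0.014 ± 0.27). Mcm3 and Mcm6 also had opposite signs, with means of 0.027 and -0.0035. A second Mcm3 probe gave 0.28 ± 0.34, also with opposite signs. The ring works as a hexamer of these 6 different subunits, and their ratios ran from -0.014 to 0.32.

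Among the factors that switch the helicase on, 0 of 6 measured genes were higher on both arrays (24.4% of all genes were). On both arrays 2 were lower (33.3%, against 27.4%). The median was -0.011 (array 1, -0.086; array 2, -0.012), which without loess was -0.35, or -0.14 from the median of all genes. Cdc7, the kinase that phosphorylates the ring, had signals of 10.09 (miR-181b) and 10.19 (control) on array 1 and of 10.00 and 10.10 on array 2. The ratio of its brightest probe was -0.10 ± 0.0046, but its other 2 measured probes lay at 0.013 and 0.020 with opposite signs on the arrays. Dbf4, the activating subunit of that kinase, was at -0.0047 ± 0.025. Gins3 of the GINS complex had 10.18 and 10.27, then 10.06 and 10.11, and a ratio of -0.069 ± 0.025. Cdc45l, now Cdc45, which joins the ring with GINS to form the working helicase, had 9.93 and 10.09 on array 1 and 10.07 and 9.69 on array 2. Its ratio turned from -0.16 to 0.38 between the arrays. Gins1 (0.20 and -0.22) and Mcm10 (-0.077 and 0.052), which helps activate the helicase, also had opposite signs.

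Of primase and the replicative polymerases, the role group with the most names, 5 of 8 were lower on both arrays (62.5%, against 27.4% of all genes) and 1 was higher, and the median was -0.10 (array 1, -0.043; array 2, -0.20), which without loess was -0.45, or -0.25 from the median of all genes. Pold1, the catalytic subunit of polymerase delta, had signals of 13.26 (miR-181b) and 13.46 (control) on array 1 and of 13.13 and 13.45 on array 2. Both miR-181b readings were below both control readings (-0.26 ± 0.063, just short of the 1.2-fold threshold), and a second probe gave -0.15 ± 0.052. Its partner subunit Pold2 lay on the other side, with 10.76 and 10.63, then 10.70 and 10.35. That ratio was 0.24 ± 0.11, and -0.074 without loess, which is 0.13 above the median of all genes. Pola1, the catalytic subunit of the polymerase that extends primers, had 10.84 and 10.97, then 10.76 and 10.99, a ratio of -0.18 ± 0.052. Its accessory subunit Pola2 had 9.66 and 9.78 on array 1 and 9.90 and 9.17 on array 2. Among the 42 genes its ratios lay furthest apart (-0.12 and 0.73), and its mean of 0.31 is not counted as higher because the signs were opposed. Prim2, the large primase subunit, was lower on both arrays (-0.018 and -0.18), and the catalytic subunit Prim1 had 0.011 and -0.21. Polymerase epsilon was lower on both arrays in its catalytic subunit Pole (-0.094 ± 0.043) and in Pole2 (-0.13 ± 0.095).

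Of the sliding clamp and its loader, 0 of 5 measured genes were higher on both arrays (24.4% of all genes were). On both arrays 1 was lower (20%, against 27.4%). The median was -0.048, but its sign differed between the arrays (array 1, 0.027; array 2, -0.12), and without loess it was -0.44, or -0.23 from the median of all genes. Pcna, the clamp itself, was measured by 1 probe in 10 spots per array, which separates the noise between spots from the difference between arrays. Its mean signals were 15.36 (miR-181b) and 14.96 (control) on array 1 and 14.98 and 15.27 on array 2. The spots ran from 0.35 to 0.45 on array 1 (0.40 ± 0.037, SD over 10 spots) and from -0.33 to -0.26 on array 2 (-0.28 ± 0.023, SD over 10 spots). The 160 repeated probes on the array had median SDs of 0.053 and 0.046 between spots. Every Pcna spot followed the dye: the RNA in Cy5 was the brighter on both arrays, whichever vector it came from. The mean over both arrays was 0.057 ± 0.34, and 2 of the 10 spots on array 2 were saturated. Rfc2, a small subunit of the loader, had 14.45 and 14.52, then 14.48 and 14.54, a ratio of -0.067 ± 0.0020. Its second measured probe lay at 0.17 ± 0.24, so its probes lay on opposite sides of 0. Rfc3, Rfc4 and Rfc5 had opposite signs on the arrays, with means of -0.0073, -0.14 and -0.048.

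**Figure D3:**
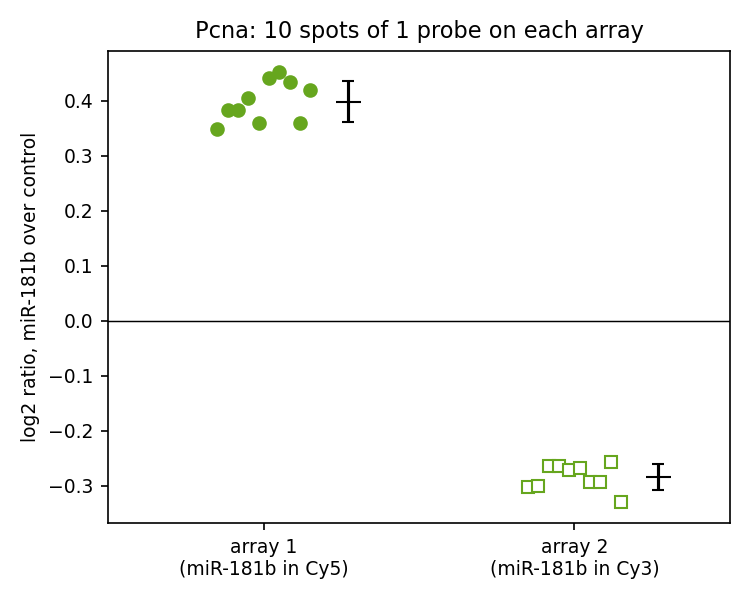
Log2 ratio of miR-181b over control in each of the 10 spots of the Pcna probe on each array; crosses with bars give the mean and SD over spots. The spots of array 1 lie between 0.35 and 0.45 and those of array 2 between -0.33 and -0.26.

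Replication protein A coats single-stranded DNA as a trimer, and its 3 subunits spread on both sides of 0. Rpa2 had signals of 12.13 (miR-181b) and 12.01 (control) on array 1 and of 12.25 and 11.84 on array 2. Both miR-181b readings were above both control readings, the ratio was 0.27 ± 0.14 and a second probe gave 0.19 ± 0.046, while without loess it was -0.099, which is 0.11 above the median of all genes. Rpa3 had 11.39 and 11.61, then 11.26 and 11.62. It lay below the control on both arrays (-0.29 ± 0.074, 1.22-fold lower). Without loess the Rpa3 ratio was -0.63, where the median of all genes was -0.20. Rpa1, the large subunit that binds DNA, was at 0.0046 ± 0.049.

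Fen1, the nuclease that trims the flaps of Okazaki fragments, had the highest ratio of the 42 genes. Its signals were 12.01 (miR-181b) and 11.86 (control) on array 1 and 12.22 and 11.46 on array 2. The miR-181b RNA was brighter on both arrays, by 0.15 and 0.76, so that the mean of 0.45 ± 0.30 (1.37-fold) came mostly from array 2. Without loess it was at 0.094, with opposite signs on the arrays, 0.30 above the median of all genes. Lig1, the ligase that seals the same fragments, had 13.59 and 13.72, then 13.60 and 13.66. That ratio was -0.094 ± 0.033, on the other side of 0 from Fen1. Chromatin assembly factor, which places histones behind the fork, had opposite signs in both measured subunits (48.2% of all genes did). Chaf1b had 12.30 and 12.10 on array 1 and 12.28 and 12.33 on array 2 (0.074 ± 0.13), and Chaf1a was at 0.10 ± 0.11.

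In deoxynucleotide supply, 2 of 4 genes were higher on both arrays (50%, against 24.4% of all genes). Lower on both were 0 (27.4% of all genes were), and 4 genes are few to set against such shares. Their ratios had a median of 0.10, with 0.055 from array 1 alone and 0.19 from array 2 alone. Without loess this median fell to -0.28, or -0.080 from the median of all genes. Rrm2, the small subunit of ribonucleotide reductase, had signals of 11.35 (miR-181b) and 11.17 (control) on array 1 and of 11.27 and 11.06 on array 2. The difference was nearly equal on both arrays (0.19 ± 0.014, 1.14-fold), and without loess the ratio was -0.15, which is 0.056 above the median of all genes. Tyms, the synthase that makes thymidylate, had 12.96 and 12.79, then 12.88 and 12.76 (0.15 ± 0.024). A second bright probe gave 0.13 ± 0.0044 and a dim one -0.098 ± 0.021, and without loess the first lay at -0.24, or -0.034 from the median of all genes. Thymidine kinase (Tk1), which salvages thymidine, had 13.19 and 13.30 on array 1 and 13.29 and 13.05 on array 2. Its signs were opposite (-0.12 and 0.24), as were those of Rrm1, the large reductase subunit (-0.062 and 0.18).

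**Figure D4:**
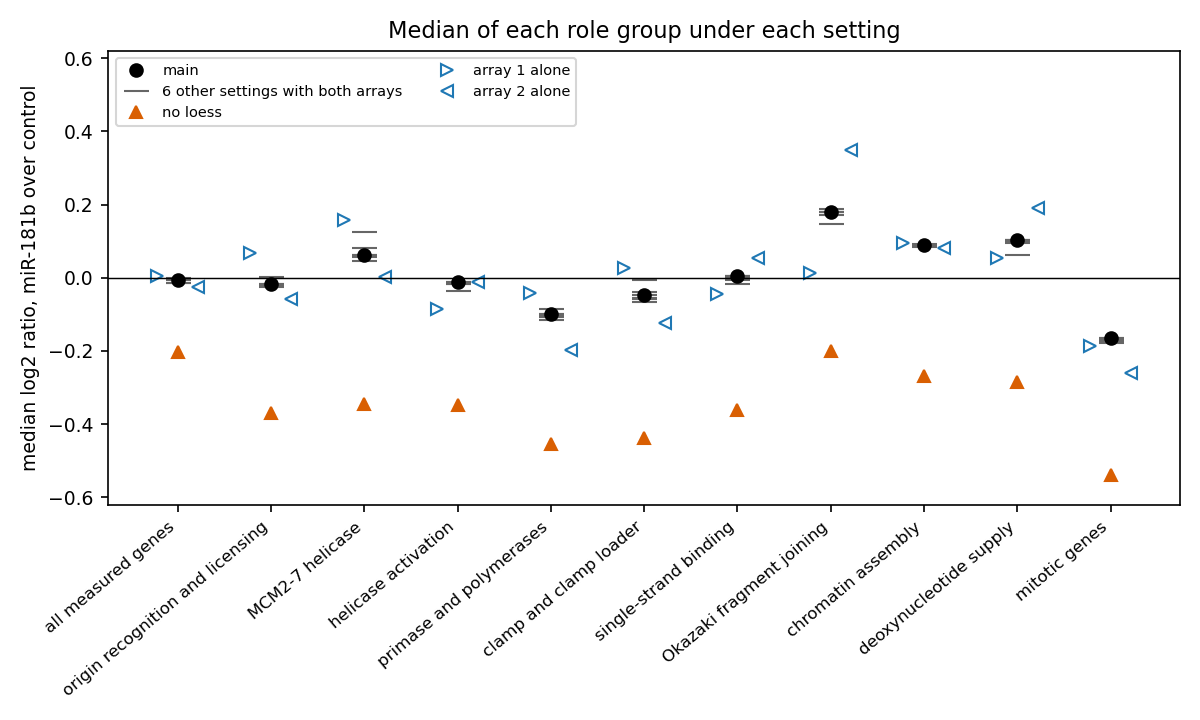
Median log2 ratio of each role group, of all measured genes and of mitotic genes under each setting. Black circles are the reported values, short lines 6 other settings with both arrays, orange triangles no loess, and open triangles each array alone; without loess every median plotted is below 0, that of all measured genes at -0.20.

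Agreement between the arrays was low for the replication genes, as it was for the whole array. Across the 42 genes the ratios of array 1 and array 2 had a Pearson correlation of 0.052 and a Spearman correlation of 0.066, and across all measured genes of 0.029 and 0.088. Without the 440 genes that had a saturated spot, the values were 0.22 and 0.14 for 17271 genes, and without Pcna they were 0.14 and 0.13 for 41 replication genes. These are descriptions over genes that share both RNAs, and genes are not replicates. The median distance of an array from the mean was 0.093 for the replication genes and 0.091 for all genes, about the size of the median absolute ratio in each (0.10 and 0.098). With 2 arrays, a mean is smaller than the distance of each array from it whenever the signs are opposite, and larger whenever they are the same. That comparison for a single gene therefore repeats the split into 20 genes with opposite signs and 22 with the same sign. Of 11 replication genes with more than 1 measured probe, 6 had probe means of both signs (Cdc6, Cdc7, Dbf4, Pola2, Rfc2 and Tyms), and over the array 41.4% of such genes did.

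**Figure D5:**
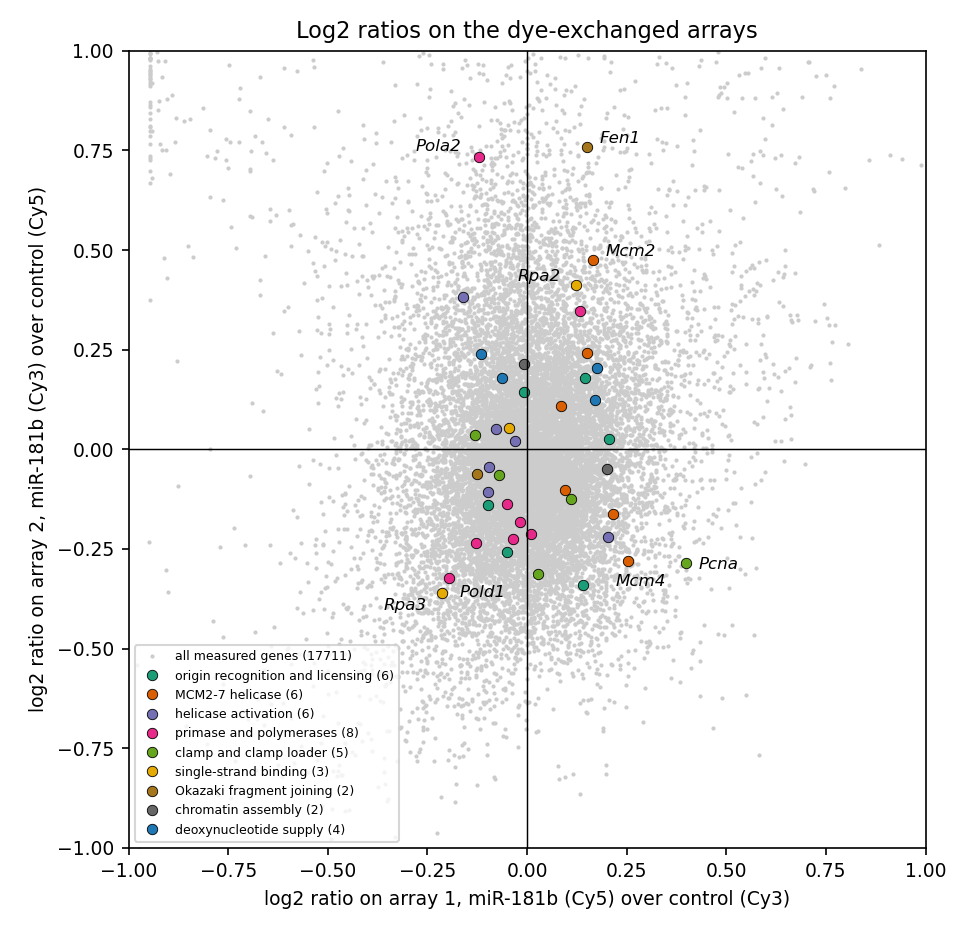
Log2 ratio of miR-181b over control on array 1 against array 2 for the 42 replication genes, coloured by role, over all 17711 measured genes in grey, of which 249 lie outside the plotted range. Genes in the upper right or lower left quadrant had the same sign on both arrays; Pcna and Mcm4 lie in the lower right and Pola2 in the upper left.

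Other genes of the same pathways gave a wider view. Of further replication genes (accessory licensing, checkpoint, fork and histone factors), 28 were measured. On both arrays 5 were higher (17.9%, against 24.4% of all genes) and 4 lower (14.3%, against 27.4%). The signs of 19 were opposite (48.2% of all genes). None passed 1.2-fold (0 higher and 0 lower, against 6.04% and 5.42% of all genes). Their median was 0.038 (array 1, 0.037; array 2, -0.014), which without loess was -0.32, or -0.12 from the median of all genes. Those furthest from 0 with the same sign on both arrays were Mcm8 (-0.25 ± 0.0025), a helicase related to the ring, Timeless (-0.25 ± 0.046), a fork protection factor, Orc4l (-0.23 ± 0.22), now Orc4, and Top1 (0.21 ± 0.16), which relaxes DNA ahead of the fork. Without loess Top1 was at -0.17, which is 0.031 above the median of all genes. Of further nucleotide synthesis genes, 35 were measured. On both arrays 16 were higher (45.7%, against 24.4% of all genes) and 7 lower (20%, against 27.4%), and 12 were opposite (48.2% of all genes). Their median was 0.086 (array 1, 0.044; array 2, 0.13), and -0.20 without loess, which is 0.0076 above the median of all genes. In this list 4 genes were at least 1.2-fold higher (6.04% of all genes were) and 0 lower (5.42% of all genes were): Shmt2 (0.52 ± 0.32), the mitochondrial enzyme that supplies one-carbon units, and the purine synthesis enzymes Pfas (0.50 ± 0.063), Gart (0.43 ± 0.27) and Atic (0.42 ± 0.33). Pfas had nearly the same ratio on both arrays (0.44 and 0.57), whereas the others rested mainly on array 2. Without loess the mean ratios were 0.27 for Pfas, 0.14 for Shmt2, 0.098 for Gart and 0.059 for Atic.

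Genes of mitosis, which follow replication in the cycle, are given beside them. Of 25 measured, 0 were higher on both arrays, 16 were lower and 9 had opposite signs, and the median was -0.16 (array 1, -0.19; array 2, -0.26), beside medians of -0.0041 for the replication genes and -0.0052 for all measured genes. At least 1.2-fold, 8 mitotic genes were lower (5.42% of all genes were) and 0 higher (6.04% of all genes were). The lowest were the checkpoint kinase Bub1 (-0.68 ± 0.00010), the centromere motor Cenpe (-0.47 ± 0.19), the kinase Aurkb (-0.46 ± 0.12) and the motor Kif20a (-0.42 ± 0.073). Without loess the mitotic median was -0.54, or -0.33 from the median of all genes in that setting, a distance that takes no account of signal. The difference between the mitotic and the replication genes was not tested, as the series holds 1 RNA per vector.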

How the data were processed

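Per the labels, total RNA of sorted B cells with a miR-181b or a control vector (1 sample each) was labelled in Cy3 and Cy5 and hybridised to 2 arrays with exchanged dyes, which lie on 1 slide. Both arrays count as 1 replicate. No test between conditions was possible, and no p-value is given. The deposited scanner files hold linear intensities of each spot and its local background, made with Agilent Feature Extraction 9.1.3.1 per the file headers. They also hold processed intensities, which that software had background-subtracted and corrected for dye by lowess, per the file headers. The array's probe annotation build is not given in the sources used here.

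From these intensities, limma 3.58.1 (R 4.3.3) gave the ratios, with normexp correction (offset 50) on mean intensity and median local background and loess within each array. Control spots had weight 0 in loess. Outlier spots (7 on array 1, 21 on array 2) were dropped, and saturated spots were kept. The sign of array 2 was turned so that each ratio is miR-181b over control. Spots of a probe were averaged, and the brightest probe stood for a gene. A gene was measured when its probe was well above background in both channels of both arrays. A gene passed 1.2-fold or 1.5-fold when its mean did and both arrays had the same sign. The steps up to the probe ratios were tested on simulated data with a dye offset that did not vary with signal. The simulation therefore did not test the removal of a trend with signal, nor the choice of the brightest probe. Signals were printed for up to 3 genes per role group with the highest absolute mean ratio among those of the same sign on both arrays, and for the gene whose arrays differed most. From each other list up to 4 genes were named in the same way. The genes, lists and rules were chosen with earlier results of these data known. Alternatives were the scanner's processed intensities, no loess, scaling between arrays, another offset, all probes of a gene, no filter, saturated genes left out and each array alone. Motifs were searched on both strands of RefSeq promoters. The deposited log2 ratio table was not used, since its row identifiers matched no probe column.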

Additional observations from a re-analysis of the deposited data

How the results depend on the processing

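With 1 RNA pair on 2 arrays, what can be said of the vectors is limited by the single RNA pair. Signal over background removed no replication gene with a probe. The median ratio of the 42 genes (-0.0041) and the counts of genes higher (10) and lower (12) on both arrays were -0.0197 to 0.0214, 10 and 10 to 13 with the scanner's processed intensities, scaling between arrays, an offset of 16, all probes of a gene, no filter on dim probes and saturated genes left out. In these settings 2 or 3 genes were at least 1.2-fold higher (3.85% to 9.22% of all genes were). An offset of 16 raised those at least 1.2-fold lower from 1 to 2 (6.94% of all genes were). Without loess the median was -0.3639, with 0 genes higher and 27 lower on both arrays. At least 1.2-fold, 0 were higher (0.982% of all genes were) and 21 lower (35.9% of all genes were). At least 1.5-fold, 2 were lower. Shares of all genes by sign or at 1.5-fold were not taken in that setting. The cause of this shift was not tested. Mcm2 (-0.0156) and Rpa2 (-0.0989) then lay below 0. The median of all measured genes was -0.2042 in that setting and fell with signal, from 0.0365 in the dimmest 10% of genes to -0.4043 in the brightest. In a comparison chosen after seeing the data, the replication genes lay at a median of -0.0036 relative to equally bright genes without loess. Each array alone gave a median between -0.0473 and -0.0085, 20 genes above 0 and 22 below. At least 1.2-fold, array 1 alone had 1 gene higher and 0 lower, where 6.4% and 6.98% of all genes were. Array 2 alone had 6 higher and 6 lower, where 16.6% and 14.7% of all genes were. At least 1.5-fold, 0 to 2 were higher on a single array, for which no share of all genes was taken. No paired analysis was possible because the series holds 1 RNA pair. The deposited ratio table and the slide as a block were not run, since the table's rows could not be named and both arrays share a slide.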
